A study of Mus musculus with 8 samples.

Results

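All 8 arrays of a series on the mouse mammary cancer cell line MAM326 were set against each other by replicate number, the 4 arrays numbered 1 or 3 against the 4 numbered 2 or 4. Each side held 2 arrays of either GFP group, so the split is balanced over GFP. The split was chosen from the measured values: earlier results of these arrays showed epithelial and mesenchymal genes at different levels in those replicates. The differences between the replicate sets are therefore given as a description of these 8 arrays, with standard errors and without a test.

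MAM326 cells were grown in serum-containing medium and separated by fluorescence-activated cell sorting into GFP-positive and GFP-negative cells 2 days after they were seeded. The design text speaks of 4 independent experiments with cells at 4 passages, but no label ties an array to an experiment or a passage. The sources used here do not give what drives GFP in this line or whether the line is 1 clone. Each array was hybridised with Cy3-labelled cRNA made from 20 ng of total RNA and measured the levels of transcripts genome-wide in 1 colour.

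Epithelial cells hold on to each other through E-cadherin, tight junctions and desmosomes and carry keratin filaments. Cells in a mesenchymal state lose these contacts, use vimentin filaments and secrete collagens and other matrix proteins. Transcription factors of the Snail, Zeb and Twist families lower epithelial genes, in part through E-box motifs in their promoters, while Grhl2, Ovol1 and Ovol2 uphold them, and carcinoma cells can sit at many points between both states.

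Promoters of epithelial genes are shown first because the E-box is the textbook link between both gene groups. The motif searched was CACCTG, whose reverse complement is CAGGTG, so both strands were covered, and each is one case of the wider E-box CANNTG. The window was the 250 bases before each RefSeq transcription start on GRCm38.p6. Windows were available for 22 of 36 epithelial identity, 21 of 36 mesenchymal and 30 of 38 collagen genes. Cdh1, Grhl2, Esrp1, Krt17, Krt19, Pdgfrb and Mgp had no window and were not searched. The motif stood in a window of 17 of the 22 epithelial identity genes that had one (77.3%), of 0 of 21 mesenchymal genes, of 3 of 30 collagen genes (10.0%) and of 5252 of all 27025 genes (19.4%). The windows below are those of Epcam at chr17:87635729-87635978 (plus strand), Lsr at chr7:30973470-30973719 (minus strand), the downstream start of Cldn7 at chr11:69965171-69965420 (plus strand), Vim at chr2:13574061-13574310 (plus strand) and Pdgfra at chr5:75152001-75152250 (plus strand), with the motif in capitals. Epcam and Cldn7 hold it 2 times, Lsr 4 times, and the windows of Vim and Pdgfra do not contain these letters. Not every epithelial window has the motif: neither window of Marveld2 contains it, nor do the upstream window of Cldn7 and 1 of 2 windows of Ocln. Counted by window, it stood in 19 of 28 epithelial identity windows (67.9%) and 17.2% of all windows. A match is a description of sequence and not evidence of binding.
Epcam: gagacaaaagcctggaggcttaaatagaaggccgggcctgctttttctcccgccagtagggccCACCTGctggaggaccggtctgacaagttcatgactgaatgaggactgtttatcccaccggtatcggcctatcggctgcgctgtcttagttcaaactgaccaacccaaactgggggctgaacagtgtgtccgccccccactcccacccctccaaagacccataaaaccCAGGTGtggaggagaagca
Lsr: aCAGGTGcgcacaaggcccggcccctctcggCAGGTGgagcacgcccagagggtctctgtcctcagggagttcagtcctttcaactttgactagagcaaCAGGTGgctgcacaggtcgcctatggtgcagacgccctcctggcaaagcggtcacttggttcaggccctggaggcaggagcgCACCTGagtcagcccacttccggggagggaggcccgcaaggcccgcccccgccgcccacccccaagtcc
Cldn7: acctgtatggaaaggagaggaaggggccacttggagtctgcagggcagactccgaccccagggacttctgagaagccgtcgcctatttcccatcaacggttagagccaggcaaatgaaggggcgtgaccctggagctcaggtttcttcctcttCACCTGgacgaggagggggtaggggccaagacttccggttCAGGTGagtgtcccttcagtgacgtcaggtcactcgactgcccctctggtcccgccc
Vim: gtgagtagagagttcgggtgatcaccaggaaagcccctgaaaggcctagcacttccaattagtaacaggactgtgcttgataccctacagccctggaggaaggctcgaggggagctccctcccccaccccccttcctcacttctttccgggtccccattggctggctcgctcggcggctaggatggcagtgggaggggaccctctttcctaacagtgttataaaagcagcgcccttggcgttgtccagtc
Pdgfra: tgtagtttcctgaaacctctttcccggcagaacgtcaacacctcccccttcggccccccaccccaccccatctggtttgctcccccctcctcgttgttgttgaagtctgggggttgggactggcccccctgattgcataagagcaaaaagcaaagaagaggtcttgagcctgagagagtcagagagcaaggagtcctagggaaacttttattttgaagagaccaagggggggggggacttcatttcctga

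All 8 arrays lay on 1 slide, and the replicate number was also the column of the slide, so replicate number and slide column cannot be told apart. The slide row held GFP-positive replicates 1 and 3 with GFP-negative replicates 2 and 4 in one row and the other 4 arrays in the other, which makes slide row the same as the interaction of GFP and replicate set. Between 26145 and 31960 probes were well above background on the arrays of replicates 1 and 3 and between 25102 and 28433 on those of replicates 2 and 4. Local background ran from 30.9 to 35.3 intensity units against 34.3 to 37.0 units, and the part of these technical values in the results was not tested. All 7 epithelial defining markers (Cdh1, Epcam, Krt8, Krt18, Cldn3, Cldn4 and Cldn7) were well above background on all 8 arrays. Of the 10 leukocyte markers 3 were (Csf1r, C1qb and Cd3e), while Lyz2, C1qa and C1qc were above it on 0 arrays, as were 4 of 6 endothelial markers, among them Cdh5 and Tek. The mean deviation of the leukocyte markers measured ran from -0.32 to 0.37 in replicates 1 and 3 and from -0.23 to 0.15 in replicates 2 and 4, so those sets overlapped.

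Levels are log2 values relative to each array's 75th percentile, and a difference is the mean of replicates 1 and 3 minus that of replicates 2 and 4, with the standard error of the fit. Values of 8 arrays are always in the order GFP-negative then GFP-positive within a set, by rising replicate number. Of 19685 features, 51 (0.259%) were at least 2-fold higher in replicates 1 and 3 with all 4 arrays above all 4 of the other set, and 189 (0.96%) were at least 2-fold lower without overlap. Without a size limit, 724 features (3.68%) were higher and 1001 (5.09%) lower without overlap. The median difference over all features was -0.01. With normexp background correction the 2-fold counts were 2 higher and 84 lower. They were 153 and 345 without GFP-negative replicate 3, and 148 and 309 without GFP-positive replicate 2. Without GFP-negative replicate 1 or GFP-positive replicate 4, 77 and 90 features were higher. With an array left out, the rule of no overlap is easier to meet. The features just inside the 2-fold limit were Il1rl1, Gypc and 9130024F11Rik, with absolute differences of 1.0031, 1.0036 and 1.0106, and those just outside it were Atp8b2, Calhm2 and Lysmd2, with 0.9997, 0.9988 and 0.9983.

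Genes of epithelial identity were on average higher in replicates 1 and 3. All 36 genes of the list were measured, 35 of them with a positive difference, and their median difference was 0.71. In 11 of the 36 the sets did not overlap, all of these higher in replicates 1 and 3, where 3.68% of all features were higher without overlap. Of the 36, 0 reached the 2-fold count, beside 0.259% of all features. Among GFP-negative arrays the list's median difference was 0.95, and among GFP-positive arrays it was 0.51. RNA of sorted populations was measured, so more cells of an epithelial kind and more epithelial RNA per cell cannot be told apart.

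**Figure D1:**
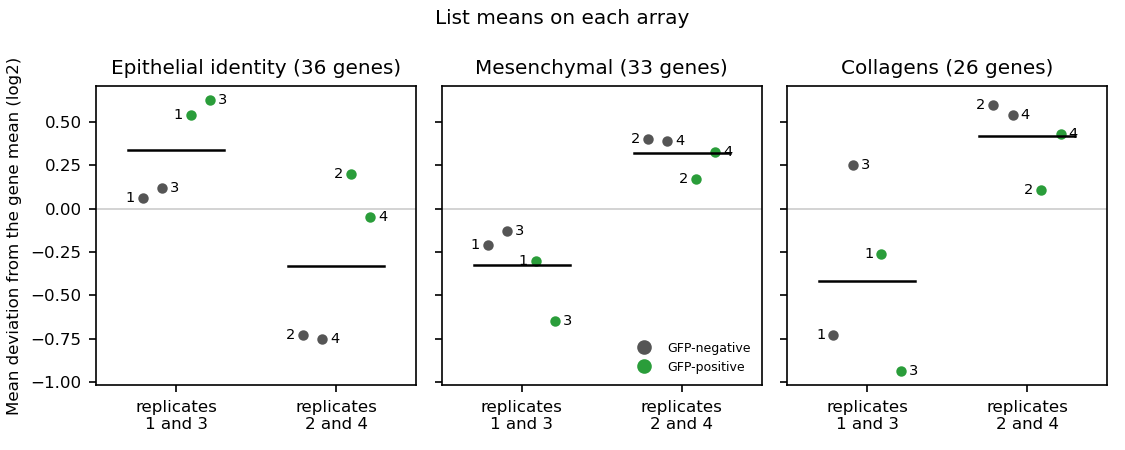
Mean deviation of each gene list on each array, in log2 units from the gene's mean over 8 arrays, by replicate set, with the replicate number beside each point and the mean of 4 arrays as a line. Epithelial identity genes ran from 0.06 to 0.63 in replicates 1 and 3 and from -0.75 to 0.20 in replicates 2 and 4, mesenchymal genes from -0.65 to -0.13 against 0.17 to 0.40, and collagens overlapped, with GFP-negative replicate 3 at 0.25.

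On the list means the epithelial genes overlapped between the sets, because GFP-positive replicate 2, at 0.20, lay above GFP-negative replicates 1 and 3, at 0.06 and 0.12. Within each GFP group the sets did not overlap. The lowest arrays were GFP-negative replicates 2 and 4, at -0.73 and -0.75.

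The adhesion genes showed the pattern at the level of single probes. Cdh1, which encodes E-cadherin, was read by a probe at chr8:109193812-109193871 on mm9 and stood at 0.86, 0.97, 1.13 and 1.14 in replicates 1 and 3 and 0.18, 0.07, 0.75 and 0.48 in replicates 2 and 4. Every array of replicates 1 and 3 lay above every array of replicates 2 and 4, and the difference was 0.66 ± 0.09. Epcam, the epithelial cell adhesion molecule whose promoter is printed above (probe at chr17:88048972-88049800), stood at 3.26, 3.09, 3.38 and 3.44 in replicates 1 and 3 and 2.29, 2.16, 3.07 and 2.82 in replicates 2 and 4, a difference of 0.71 ± 0.12 without overlap. For both genes the difference was larger among GFP-negative arrays: 0.79 among GFP-negative and 0.52 among GFP-positive arrays for Cdh1 and 0.95 among GFP-negative and 0.46 among GFP-positive arrays for Epcam.

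Tight junction genes had differences of the same sign. Lsr, an organiser of tricellular junctions and the gene with 4 motifs above, stood at 6.03, 5.95, 6.08 and 6.22 in replicates 1 and 3 and 4.96, 4.81, 5.62 and 5.56 in replicates 2 and 4. Its partner Marveld2, known as tricellulin, stood at 0.45, 0.50, 0.79 and 0.89 in replicates 1 and 3 and -0.52, -0.60, 0.33 and -0.01 in replicates 2 and 4. Neither gene's sets overlapped, and the differences were 0.84 ± 0.12 and 0.86 ± 0.11. Cldn7, a claudin of the junction strands, differed by 0.78 ± 0.15, also without overlap. Cldn4 had values of 0.78, 1.71, 2.65 and 2.43 in replicates 1 and 3 and 0.42, 0.65, 1.62 and 1.5 in replicates 2 and 4, and its sets overlapped through GFP-negative replicate 1, the lowest array of its set. Cldn3 (0.57 ± 0.14) overlapped as well, since GFP-positive replicate 2 stood high.

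Among the regulators of the epithelial state, Grhl2 is a Grainyhead transcription factor that maintains epithelial genes. Grhl2 (probe at chr15:37293139-37293198) stood at 2.71, 2.70, 3.08 and 3.16 in replicates 1 and 3 and 1.55, 1.57, 2.56 and 2.29 in replicates 2 and 4, with a difference of 0.92 ± 0.11 and no overlap, and its other kept probe gave 0.88. Esrp1, which drives epithelial splicing, stood at 1.84, 1.91, 2.09 and 2.36 in replicates 1 and 3 and 0.84, 0.90, 1.81 and 1.42 in replicates 2 and 4 and differed by 0.81 ± 0.13 without overlap. Esrp2, its relative, differed by 0.70 ± 0.10 with overlapping sets. Ovol1 differed by 0.97 ± 0.37 with overlap, whereas its relative Ovol2 was at 3.09, 3.02, 3.23 and 3.26 in replicates 1 and 3 and 3.04, 3.18, 3.29 and 3.12 in replicates 2 and 4, a difference of -0.01 ± 0.07 that is smaller than its error. Ovol2 was the member of the list without a positive difference.

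Of 12 keratins measured, 11 had a positive difference, with a median of 0.56, and 3 were higher without overlap, beside 3.68% of all features. Krt17, a basal and stress keratin, stood at 5.30, 5.30, 5.72 and 5.61 in replicates 1 and 3 and 4.47, 4.15, 4.97 and 4.91 in replicates 2 and 4, with 0.86 ± 0.10 between the sets. Krt19, a luminal keratin, differed by 0.76 ± 0.11, and Krt18, the partner of Krt8 in simple epithelia, by 0.41 ± 0.09. Sets of the basal keratins Krt5 (0.67 ± 0.23) and Krt14 (0.52 ± 0.16) and of Krt8 (0.53 ± 0.12) overlapped. All 10 desmosomal genes measured had positive differences, with a median of 0.45. Dsc2, a desmosomal cadherin, was the one without overlap (0.45 ± 0.09), where 3.68% of all features were higher without overlap.

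Laminin and hemidesmosome genes had a median of 0.27 over 13 measured, and 0 of them were free of overlap. For a list this short, that is near the shares of all features (3.68% higher and 5.09% lower). Lama3, a chain of the laminin that anchors epithelia to the basement membrane, had a difference of 1.57 ± 0.45 on values of 2.04, 0.64, 1.96 and 3.17 in replicates 1 and 3 and -0.66, 0.23, 1.61 and 0.37 in replicates 2 and 4. GFP-negative replicate 3 was low and GFP-positive replicate 2 high, which made the sets overlap. Trp63, a transcription factor of basal epithelium, gave 0.15 ± 0.09 on its brightest probe and -0.81 on another kept probe, so its probes disagree in sign.

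**Figure D2:**
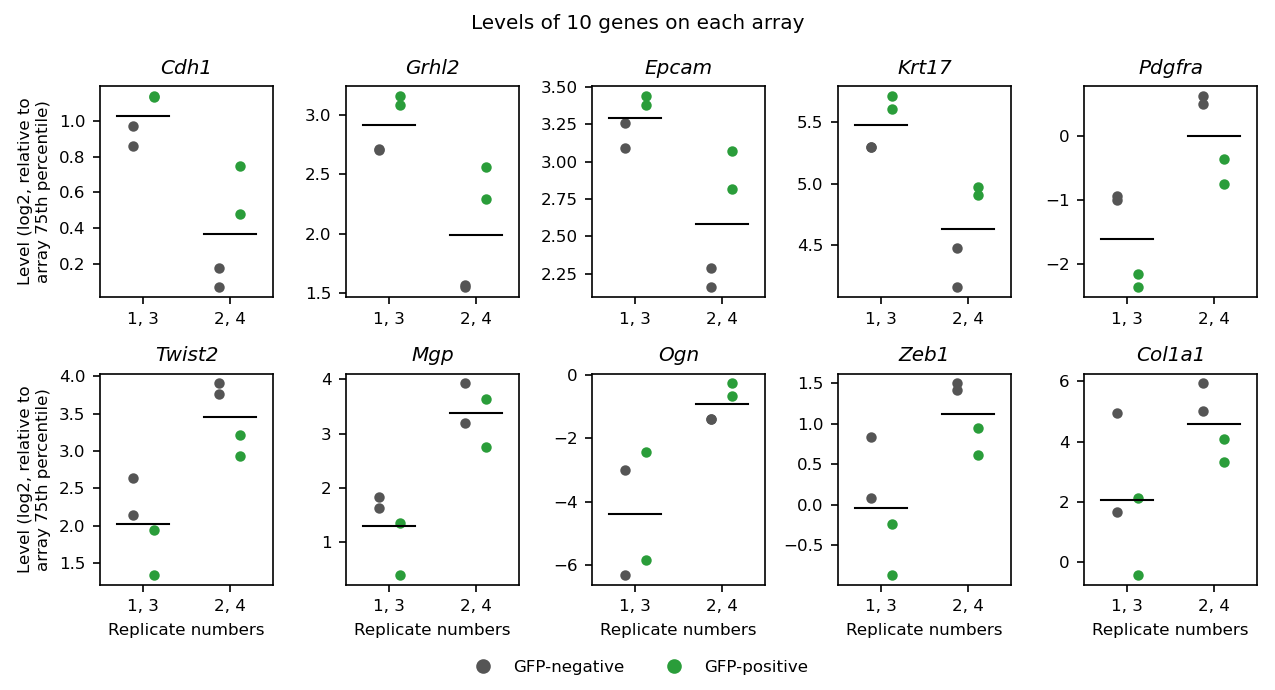
Levels of 10 genes on each of the 8 arrays, as log2 relative to the array's 75th percentile, by replicate numbers, with the mean of 4 arrays as a line and a separate scale in each panel. Cdh1, Grhl2, Epcam and Krt17 lie higher and Pdgfra, Twist2, Mgp and Ogn lower in replicates 1 and 3 without overlap, while the sets of Zeb1 and Col1a1 overlap.

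Transcription factors that drive the mesenchymal state were on average lower in replicates 1 and 3. All 12 of the list were measured, and 11 had a negative difference with a median of -0.60. Lower without overlap were 5, beside 5.09% of all features, and 1 reached the 2-fold count, beside 0.96%. Twist2, a basic helix-loop-helix factor (probe at chr1:93744519-93744577), stood at 2.15, 2.64, 1.94 and 1.34 in replicates 1 and 3 and 3.77, 3.91, 2.93 and 3.21 in replicates 2 and 4. Its difference was -1.44 ± 0.17 and the sets did not overlap. It was nearly the same in both GFP groups, -1.45 among GFP-negative and -1.43 among GFP-positive arrays.

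Foxc2, a forkhead factor, stood at 0.41, 0.71, 0.43 and 0.46 in replicates 1 and 3 and 1.42, 1.99, 1.41 and 1.14 in replicates 2 and 4, and Prrx2, a paired-related homeobox factor, differed by -0.81 ± 0.13, both without overlap. Snai2, known as Slug, stood at 1.55, 1.38, 1.79 and 1.62 in replicates 1 and 3 and 2.0, 2.15, 1.93 and 2.07 in replicates 2 and 4, a difference of -0.45 ± 0.10. The array sets of Snai2 were separate but close, with the highest of replicates 1 and 3 at 1.79 and the lowest of replicates 2 and 4 at 1.93. Snai3 was the exception in sign, higher in replicates 1 and 3 by 0.68 ± 0.22 without overlap.

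The Zeb factors, repressors of E-cadherin, differed by -1.16 ± 0.21 (Zeb1) and -0.90 ± 0.26 (Zeb2). Zeb1 stood at 0.08, 0.84, -0.24 and -0.87 in replicates 1 and 3 and 1.42, 1.5, 0.61 and 0.94 in replicates 2 and 4, and GFP-negative replicate 3 lay above GFP-positive replicate 2, so the sets overlapped. Snai1 (-0.58 ± 0.08) and Twist1 (-0.5 ± 0.09) were lower on average with overlap. Within each GFP group taken alone, Zeb1, Snai1 and Twist1 gave negative differences.

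Mesenchymal genes beyond the transcription factors were on average lower in replicates 1 and 3. Of 36 genes in the list 33 were measured, 30 had a negative difference, and the median was -0.45. In 13 the sets did not overlap, all lower in replicates 1 and 3, beside 5.09% of all features. Of these, 9 were at least 2-fold lower, where 0.96% of all features were. Lum, Fap and Spock1 were well above background on 0 arrays.

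Receptors of platelet-derived growth factor were among the most different. Pdgfra, whose promoter is printed above (probe at chr5:75593888-75593947), stood at -1.0, -0.94, -2.16 and -2.37 in replicates 1 and 3 and 0.63, 0.50, -0.76 and -0.36 in replicates 2 and 4. The sets did not overlap, and the difference was -1.62 ± 0.11. Pdgfrb stood at 0.11, 1.64, 0.42 and -1.38 in replicates 1 and 3 and 2.45, 2.70, 1.70 and 1.94 in replicates 2 and 4, with -2.0 ± 0.47 between the sets and a wider spread in replicates 1 and 3 (SD 1.24, n = 4) than in replicates 2 and 4 (SD 0.46, n = 4).

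S100a4, a calcium-binding protein often used as a marker of the mesenchymal state, stood at 6.89, 7.61, 7.11 and 6.32 in replicates 1 and 3 and 8.23, 8.51, 8.13 and 8.01 in replicates 2 and 4, a difference of -1.23 ± 0.22 without overlap. Vim, the vimentin gene, stood at 6.44, 6.94, 6.05 and 5.22 in replicates 1 and 3 and 7.32, 7.5, 6.80 and 6.96 in replicates 2 and 4. Its difference was -0.98 ± 0.22, and GFP-negative replicate 3 overlapped with GFP-positive replicate 2. Smaller differences were found for other textbook mesenchymal genes: Fn1, encoding fibronectin, differed by -0.03 ± 0.10 and Cdh2, encoding N-cadherin, by -0.18 ± 0.09. Tnc, encoding tenascin C, went the other way with 0.67 ± 0.11, and Acta2, smooth muscle actin, was at -0.84 ± 0.27, both with overlap.

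**Figure D3:**
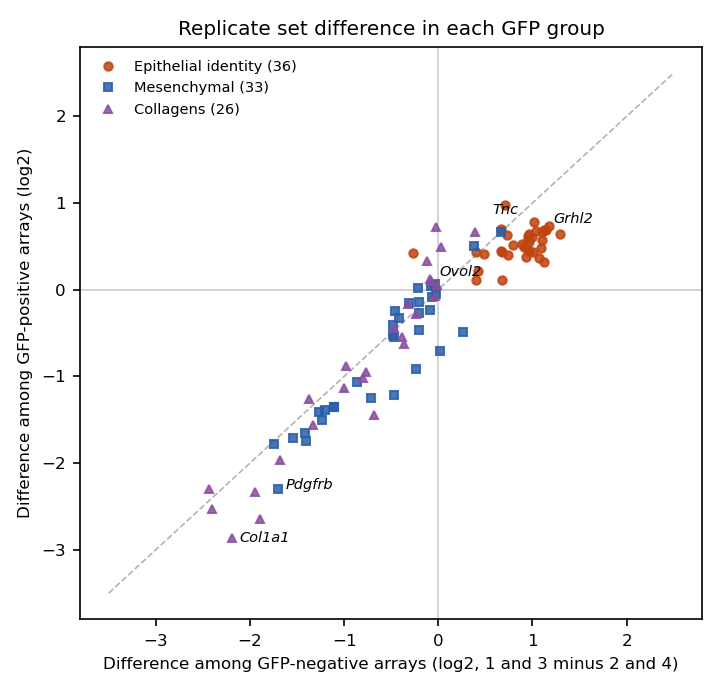
Difference of replicates 1 and 3 minus replicates 2 and 4 in log2 units among the 4 GFP-negative arrays (x axis) and the 4 GFP-positive arrays (y axis), for genes of 3 lists, with a dashed line of equal values. Mesenchymal and collagen genes lie along the line, from Col1a1 at -2.19 and -2.86 upwards, while epithelial identity genes have medians of 0.95 and 0.51.

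The differences among GFP-negative and among GFP-positive arrays come from separate arrays and are set side by side here. The split was chosen from the values of these arrays, so agreement between the GFP groups may come in part from that choice. Across all 19685 features the 2 differences had a Pearson correlation of 0.62 and a Spearman correlation of 0.54. This is a description across features that share arrays, slide, labelling and perhaps cultures. The sign was the same in 69.3% of the features. Of the 240 features counted as 2-fold without overlap, 98 had the larger difference among GFP-negative arrays.

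Collagen genes had large mean differences, and their share without overlap was near that of all features. Of 38 in the list 26 were measured, 19 had a negative difference, and the median was -0.68. Lower without overlap was 1, Col16a1, beside 5.09% of all features, and 0 reached the 2-fold count, beside 0.96%. Col16a1, which encodes a fibril-associated collagen, stood at 3.65, 4.20, 3.90 and 3.31 in replicates 1 and 3 and 4.79, 5.02, 4.37 and 4.59 in replicates 2 and 4, a difference of -0.93 ± 0.17, and its other kept probes gave -0.91 and -0.72.

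Col1a1, a chain of the main fibrillar collagen (probe at chr11:94813115-94813174), stood at 1.64, 4.95, 2.11 and -0.44 in replicates 1 and 3 and 5.94, 5.03, 3.32 and 4.08 in replicates 2 and 4. GFP-negative replicate 3, at 4.95, lay among the arrays of replicates 2 and 4, the other 3 arrays of its set lay below all of them, and the difference was -2.53 ± 0.83. Col1a2 (-2.26 ± 0.69) and Col3a1 (-2.47 ± 0.77) had the same array high. The chains of collagen VI, Col6a1 (-1.82 ± 0.44), Col6a2 (-2.14 ± 0.69) and Col6a3 (-2.37 ± 0.73), and of collagen V, Col5a1 (-1.07 ± 0.23) and Col5a2 (-1.32 ± 0.35), were lower on average with overlap too.

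Basement membrane collagens differed less, with -0.24 ± 0.12 for Col4a1. The highest positive values among the collagens were those of Col11a2 (0.52), Col2a1 (0.35) and Col4a4 (0.26), all with overlap, and Col4a4 was above background on 1 of 4 arrays of replicates 2 and 4.

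Enzymes that modify and cross-link collagen were on average lower in replicates 1 and 3. Of 23 measured, 20 had a negative difference with a median of -0.45, 7 were lower without overlap, beside 5.09% of all features, and 5 at least 2-fold, beside 0.96%. Lox, the lysyl oxidase that starts cross-linking, stood at -1.45, -1.48, -1.21 and -2.18 in replicates 1 and 3 and -0.06, -0.06, 0.07 and 0.02 in replicates 2 and 4, with -1.58 ± 0.20 between the sets, and its other kept probe gave -1.75. The relatives Loxl1 (-1.28 ± 0.28) and Loxl3 (-1.27 ± 0.27), the prolyl hydroxylase P3h3 (-1.04 ± 0.20) and Pcolce (-1.04 ± 0.21), which enhances removal of the procollagen end, were each lower without overlap.

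Non-collagen matrix proteins held the largest difference among the features named here. Of 25 measured, 20 had a negative difference, with a median of -0.55, 10 were lower without overlap, beside 5.09% of all features, and 6 at least 2-fold, beside 0.96%. Ogn, the small leucine-rich proteoglycan osteoglycin (probe at chr13:49719549-49719608), stood at -6.31, -2.99, -2.42 and -5.84 in replicates 1 and 3 and -1.38, -1.39, -0.66 and -0.26 in replicates 2 and 4, and in replicates 1 and 3 it was well above background on 2 of 4 arrays. The sets did not overlap, the difference was -3.47 ± 0.90, and the spread within replicates 1 and 3 was wide (SD 1.97, n = 4). Omd, the related osteomodulin encoded within 100000 bases of Ogn on chromosome 13, differed by -2.54 ± 0.51 and was likewise above background on 2 of 4 arrays of that set.

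Efemp1, which encodes fibulin-3, stood at -5.69, -6.78, -5.55 and -4.78 in replicates 1 and 3 and -3.08, -3.65, -3.13 and -3.02 in replicates 2 and 4, above background on 1 of 4 arrays of replicates 1 and 3, a difference of -2.48 ± 0.32. Bgn, the proteoglycan biglycan, stood at 0.34, 1.22, 0.28 and -0.57 in replicates 1 and 3 and 1.99, 2.42, 1.67 and 1.34 in replicates 2 and 4, above background throughout, with -1.53 ± 0.26 between the sets. Postn (-1.76 ± 0.55), Sparcl1 (-1.71 ± 0.49), Fbln1 (-0.78 ± 0.17) and Vcan (-0.68 ± 0.20) were also lower without overlap, but Postn was above background on 2 of 4 arrays of replicates 1 and 3, and Sparcl1 on 1 of 4 there and 3 of 4 in replicates 2 and 4. Sparc (-0.33 ± 0.11) overlapped, and Fbln2 had a positive difference (0.52 ± 0.16).

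Mgp, matrix Gla protein, an inhibitor of calcification, was well above background on all 8 arrays. It stood at 1.63, 1.83, 1.36 and 0.40 in replicates 1 and 3 and 3.93, 3.20, 2.75 and 3.64 in replicates 2 and 4, with all 4 arrays of replicates 1 and 3 below all others, and the difference was -2.07 ± 0.30. Mmp2, a gelatinase, differed by -0.96 ± 0.10 and its inhibitor Timp2 by -0.38 ± 0.07, both without overlap.

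Outside the lists, several of the genes with the most negative differences encoded secreted and membrane proteins. Lbp, the lipopolysaccharide-binding protein, differed by -2.47 ± 0.23 and was above background on 1 of 4 arrays of replicates 1 and 3 and on all 4 of replicates 2 and 4. Stra6, the retinol transporter, was not well above background on any array of replicates 1 and 3 and was at least 4.11-fold lower there. On the same basis the ephrin receptor gene Ephb1 was at least 2.96-fold and Lypd1 at least 2.67-fold lower.

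Another 5 genes outside the lists were well above background on all 8 arrays. Cd248, which encodes endosialin of stromal cells, stood at 0.95, 2.22, 1.59 and -0.08 in replicates 1 and 3 and 3.59, 3.25, 2.70 and 3.00 in replicates 2 and 4, a difference of -1.96 ± 0.41. Wnt6, a Wnt ligand, stood at -1.06, -0.82, -1.54 and -2.32 in replicates 1 and 3 and 0.82, 0.54, 0.21 and 0.20 in replicates 2 and 4, a difference of -1.88 ± 0.20. Tmem119 (-2.21 ± 0.28), Pdlim4 (-1.86 ± 0.38) and the retinoic acid responsive Rarres1 (-1.86 ± 0.22) were also lower, and none of these 5 overlapped.

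Of the 51 features counted as higher in replicates 1 and 3, 0 belonged to the lists used here. DXBay18 and Gm5639, both on the X chromosome, each differed by 2.14, with errors of 0.23 and 0.32, and the X-linked Gm5640 by 1.62 ± 0.24. Whether their probes read near-identical copies was not analysed here, so the 3 are uncertain as separate genes. Cntfr, a receptor subunit for ciliary neurotrophic factor, stood at -2.56, -2.14, -1.97 and -2.09 in replicates 1 and 3 and -5.39, -3.79, -3.02 and -3.75 in replicates 2 and 4, a difference of 1.80 ± 0.38. Cntfr, DXBay18 and Gm5639 were above background on 3 of 4 arrays of replicates 2 and 4.

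Aqp8, a water channel, stood at 0.47, -0.66, -1.11 and 0.23 in replicates 1 and 3 and -2.57, -1.58, -1.38 and -2.51 in replicates 2 and 4, a difference of 1.74 ± 0.45 with all arrays above background. Pdk4, a kinase that holds back pyruvate oxidation, stood at -0.30, -0.25, 0.73 and 0.32 in replicates 1 and 3 and -1.28, -2.04, -0.93 and -0.55 in replicates 2 and 4, with 1.32 ± 0.19 between the sets. Gpx2, a glutathione peroxidase, differed by 1.34 ± 0.38, Il23a, a cytokine subunit, by 1.22 ± 0.24 and the noncoding RNA Airn by 1.22 ± 0.26, none with overlap. The 2 other kept probes of Airn gave smaller differences, 0.48 and 0.51. Plin5, a lipid droplet coat protein, differed by 1.54 ± 0.57 but was above background on 1 of 4 arrays of replicates 2 and 4.

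Signalling and metabolic lists gave a mixed picture. Of 19 genes of the transforming growth factor beta pathway, 2 were higher and 5 lower without overlap, with a median of -0.04. Over all features, 3.68% were higher and 5.09% lower without overlap. Tgfbi, a matrix protein induced by the pathway, stood at 1.35, 1.39, 1.33 and 1.54 in replicates 1 and 3 and 2.61, 2.87, 2.48 and 2.04 in replicates 2 and 4 and differed by -1.10 ± 0.16. The ligand Tgfb1 differed by -0.65 ± 0.11, the co-receptor Tgfbr3 by -0.54 ± 0.16 and the receptor Tgfbr1 by 0.38 ± 0.12, all without overlap.

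Cholesterol synthesis genes had negative differences in 18 of 19, with a median of -0.44. Interferon-stimulated genes had them in 20 of 22, with a median of -0.34. In both lists 0 members were free of overlap. For lists this short, that is near the shares of all features (3.68% higher and 5.09% lower). In the glycolysis and hypoxia list 3 of 25 were lower without overlap, beside 5.09% of all features: Pdk1 (-0.99 ± 0.16), Pfkp (-0.87 ± 0.07) and Bnip3 (-0.67 ± 0.11). Another kept probe of Pfkp gave -0.06. Psmb8, an immunoproteasome subunit, differed by -1.04 ± 0.29 and B2m, the light chain of class I molecules, by -0.29 ± 0.09. These were the 2 of 15 class I genes lower without overlap, beside 5.09% of all features.

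Proliferation genes lay near the centre of the data. The median was -0.08 over 29 replication genes and -0.12 over 24 mitosis genes, and Mki67, a proliferation marker, differed by 0.19 ± 0.12. Ribosomal protein genes had a median of -0.08 with 29 of 31 negative, and housekeeping genes a median of -0.10 with 11 of 16 negative. Negative differences were also found in 22 of 29 replication genes and 15 of 24 mitosis genes. Over all 19685 features 10079 were negative. Of 31 ribosomal protein genes 0 were free of overlap, where 3.68% of all features were higher and 5.09% lower without overlap.

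Of 15 fibroblast markers, 11 were measured, with a median difference of -0.78, and of -1.81 over the 8 well above background on all arrays. Of the 11, 3 were lower without overlap (Pdgfra, Pdgfrb and Fbln1), beside 5.09% of all features. Lum, Fap and Dpt were above background on 0 arrays. The mean deviation of the 11 ran from -1.26 to 0.31 in replicates 1 and 3 and from 0.06 to 1.05 in replicates 2 and 4. Dcn, encoding decorin and a defining fibroblast gene, differed by -0.12 ± 0.54. Of 4 adipocyte markers 1 was measured, Fabp4, a fatty acid binding protein. It deviated by -0.64 to -0.26 in replicates 1 and 3 and by 0.19 to 0.60 in replicates 2 and 4, a difference of -0.78 ± 0.12 without overlap, while Adipoq, Plin1 and Lep were above background on 0 arrays. Of 4 pericyte markers, Cspg4, the NG2 proteoglycan, differed by -1.68 ± 0.51 with overlap and Mcam by 0.09, Rgs5 was above background on 1 array and Kcnj8 on 0. Cspg4 was above background on 3 of 4 arrays of replicates 1 and 3. The mean deviation of Cspg4 and Mcam ran from -0.90 to 0.45 against 0 to 0.87. The part of fibroblasts, adipocytes, pericytes or other stromal cells in these differences was not tested.

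GFP does not enter the split, so the GFP difference was tested with the replicate set in the fit. With limma and Benjamini-Hochberg adjustment over 19685 features, 856 (4.35%) were higher and 946 (4.81%) lower in GFP-positive cells at an adjusted p under 0.05, with quantile normalization 831 and 489. Without the set in the fit 503 passed, 357 higher and 146 lower, all of them among the 1802 that passed with it. The set was chosen from these same arrays, which the p-values do not allow for, and leaving out any 1 array left 501 to 984 features, 384 to 579 higher and 110 (without GFP-negative replicate 3) to 405 lower. With slide row added 588 were higher and 353 lower, and with no filter on dim probes 263 and 33, so the near-even split did not hold under these settings.

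Of the 36 epithelial identity genes, 20 were higher in GFP-positive cells at that threshold and 0 lower, beside 4.35% of all features. The split was chosen on epithelial and mesenchymal genes. With the set in the fit, the share of all features is therefore not a like measure for such lists. Without the set in the fit 1 of the 36 passed, where 357 of 19685 features were higher. Without any 1 array 6 to 14 passed, where 384 to 579 of all features were higher. Esrp2 was higher by 0.82 ± 0.10 (limma adjusted p = 0.00722 with the set and 0.129 without), in both GFP-positive arrays of each set against both GFP-negative ones. Grhl2 was higher by 0.64 ± 0.11 (limma adjusted p = 0.0235 and 0.304). Cdh1 (0.35 ± 0.09, limma adjusted p = 0.0611) and Epcam (0.48 ± 0.12, limma adjusted p = 0.0582) did not pass.

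Of the 12 mesenchymal transcription factors, 4 fell in GFP-positive cells and 0 rose, beside 4.81% of all features: Snai1 with a difference of -0.53 ± 0.08 (limma adjusted p = 0.0138), Twist1 with -0.55 ± 0.09 (0.0205), Prrx1 with -0.68 ± 0.12 (0.0236) and Twist2 with -0.76 ± 0.17 (0.038). As for the epithelial genes, the share of all features with the set in the fit is not a like measure here. Without the set in the fit 0 of the 12 passed, where 357 of 19685 features were higher and 146 lower. Pdgfra was lower in GFP-positive cells, with a difference of -1.21 ± 0.11 (limma adjusted p = 0.00185 with the set and 0.256 without). The GFP difference of Pdgfra was -1.30 within replicates 1 and 3 and -1.13 within replicates 2 and 4. Of 26 collagens 3 rose and 2 fell, beside 4.35% and 4.81% of all features. Without the set 2 collagens rose and 0 fell, beside 357 and 146 of 19685 features. Col1a1 (-2.12 ± 0.83, limma adjusted p = 0.148) was not among those that passed. Inpp5d, which encodes the phosphatase SHIP1, was higher by 3.16 ± 0.23 with the set (limma adjusted p = 0.000913) and passed without it (0.00176), and its replicate sets overlapped (0.54 ± 0.23).

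**Figure D4:**
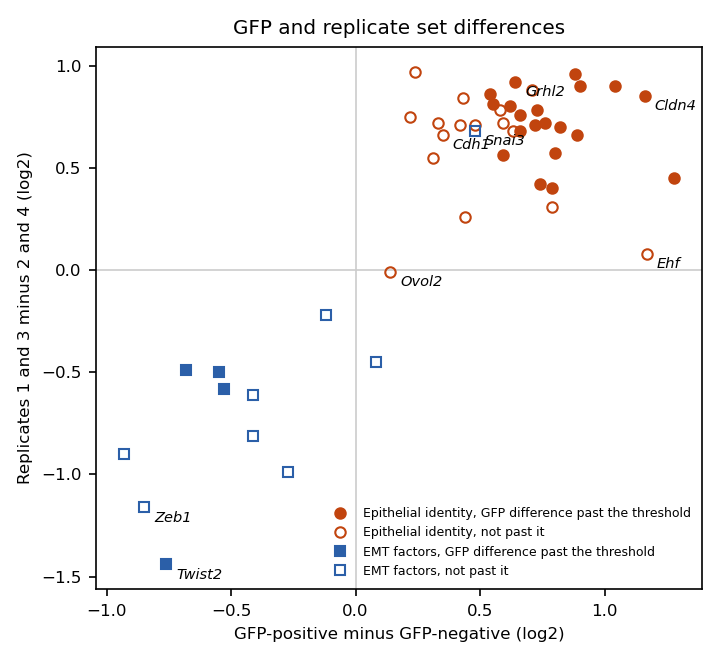
GFP difference (x axis, GFP-positive minus GFP-negative) and replicate set difference (y axis, replicates 1 and 3 minus 2 and 4) in log2 units for 36 epithelial identity genes and 12 mesenchymal transcription factors (EMT factors), with filled symbols where the GFP difference passed an adjusted p of 0.05 with the set in the fit. Grhl2 lies at 0.64 and 0.92, Twist2 at -0.76 and -1.44, and Ovol2 at 0.14 and -0.01.

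Both differences come from the same 8 arrays, so they are given side by side with no correlation. Among the sums of squares over all features, the replicate set took 26.6%, GFP 29.5%, their interaction 6.31%, and the 4 remaining degrees of freedom 37.5%, which is 9.39% for each. The first share comes from a split chosen on these values and is a description. Of the 240 set features 31 were also GFP features, where 1802 of all 19685 features were.

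Whether the GFP difference itself depended on the set was tested as an interaction. With limma, 0 of 19685 features passed an adjusted p of 0.05, and 566 (2.88%) had an unadjusted p under 0.05. With probes above background on at least 2 arrays 5 passed, and with no filter on dim probes 3827. The epithelial identity list had a median GFP difference of 0.48 within replicates 1 and 3 and 0.83 within replicates 2 and 4, and 0 of its 36 members passed the interaction test. In simulated data this test recovered 0% of features with a true interaction of 0.5 and 18% of those with 1. The list's median interaction was -0.36, so 0 passing does not show that the GFP difference was the same in both sets. For Grhl2 the interaction was -0.45 ± 0.16 and for Lsr -0.54 ± 0.15, each with a limma adjusted p of 1. Since slide row is the same as the interaction, a dependence on the set and an effect of the row cannot be told apart.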

How the data were processed

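Transcript levels were measured on 8 one-colour Agilent arrays. Per the file headers, the deposited intensities (processed signal) were corrected for background by Agilent Feature Extraction 10.7.3.1, with probe positions on mm9. The authors' steps after extraction are not stated in the labels or headers. Signals were taken to log2, each array's 75th percentile was subtracted, and spots of one probe were averaged, leaving out 106 to 186 outlier spots per array. Kept were 27573 probes well above background on at least 4 arrays, and each gene took its brightest, giving 19685 features. Accessions of 27509 of 55681 probes (49.4%) matched RefSeq genes of GRCm38.p6. The exon or UTR of a probe was not analysed.

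Groups and replicate numbers came from the labels. The replicate split, gene lists and named genes were chosen with earlier results of these data known. Named were the 15 most positive and 15 most negative counted differences with a symbol, up to 5 non-overlapping members of each of 33 lists, and a set of epithelial, mesenchymal and mammary genes whatever their values; other genes named were chosen after their values were seen, and some genes under these rules are not reported here. limma 3.58.1 in R 4.3.3 gave set differences with GFP in the fit, without a test, and tested GFP and the interaction with Benjamini-Hochberg adjustment at 0.05. Errors after ± are standard errors of that fit. A bound compares the set mean with, per array, the higher of the probe's signal and the lowest signal well above background. Nothing says that the samples are separate cultures beyond the design text, so p-values measure the spread between these 8 arrays. GFP-positive and GFP-negative arrays may be fractions of the same cultures. Standard errors and SDs count arrays and not cultures. The number of arrays limits precision. The steps were tested on simulated data. There the 2-fold count without overlap recovered 46% of features with a true log2 set difference of 1 and 98% of those with 2. It also made 27 false calls among unchanged features. The features simulated for this count had no GFP difference, so recovery of genes that also differ by GFP was not measured.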

Additional observations from a re-analysis of the deposited data

Results flagged for a closer look

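Each named gene and list mean was checked in both sets of 4 arrays for an array whose gap to the nearest of the others was large for the range of the set by Dixon's criterion for 4 samples. Of 284 such sets, 6 met this, and chance alone marks about 1 in 20. In replicates 2 and 4, Spred3 was at -6.05 on GFP-positive replicate 2 against -5.08 to -4.92 on the other arrays. In the same set, Plin5 was at -7.30 on GFP-negative replicate 4 against -5.06 to -4.69, and Loxl1 at 2.99 on GFP-positive replicate 2 against 3.46 to 3.54. The mean of the leukocyte list was -0.14 on GFP-negative replicate 2 against 0.07 to 0.08. In replicates 1 and 3, Foxc2 was at 0.71 on GFP-negative replicate 3 against 0.41 to 0.46, and Col4a1 at 0.59 on GFP-positive replicate 1 against 0.90 to 0.93.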

How the results depend on the processing

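The medians of the epithelial identity, mesenchymal and collagen lists kept their sign under every alternative run. Those that moved by more than the spread between arrays were the epithelial medians within one GFP group, 0.51 among GFP-positive and 0.95 among GFP-negative arrays. Without any 1 array they ran from 0.65 to 0.80, -0.49 to -0.37 and -0.81 to -0.57. The features higher and lower in replicates 1 and 3 numbered 51 and 189, and 2 and 84 with normexp background correction, 184 and 386 at 1.5-fold, 2 and 11 at 4-fold, 221 and 415 in GFP-positive arrays alone and 310 and 400 in GFP-negative arrays alone. Those higher numbered 27 with probes above background on all 8 arrays, 85 on at least 2 and 131 with no filter. Without any 1 array the counts ran from 44 to 153 higher and from 169 to 345 lower. With fewer arrays in a set, as in these runs and within 1 GFP group, the no-overlap rule is easier to meet. Those counts are therefore not on the same footing as 51 and 189.

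Features past the GFP threshold numbered 1802, and 503 with no set in the fit, 941 with slide row added, 296 with no filter on dim probes and 501 to 984 without any 1 array. Of the 36 epithelial identity genes 20 passed, and 1 with no set, 2 with no filter and 6 to 14 without any 1 array. The interaction had 0 features past the threshold, also without any 1 array, but 5 with probes above background on at least 2 arrays and 3827 with no filter on dim probes. The cause of these changes was not tested. With the replicate block in place of the set, 214 features (188 higher, 26 lower) and 1 epithelial gene passed. The numbers were not used as pairs, since no label says that a number marks the same experiment in both GFP groups. Deviations of same-numbered arrays correlated by -0.03, 0.07, 0.02 and 0.18 for replicates 1 to 4, and 0 of 4 numbers had their highest correlation with their own number. GFP-negative replicates 1, 2, 3 and 4 correlated most with GFP-positive replicates 3, 4, 1 and 2, at 0.60, 0.65, 0.43 and 0.34, each the other number of the same set. The labels do not say whether both GFP groups were numbered in one order, and exchanging numbers within a set leaves each array in its set. Of the 19 named genes past the GFP threshold, 18 missed it with no set, 17 with the replicate block, 16 with no filter, 9 to 13 without any 1 array and 6 with slide row added, and 0 changed sign. Of 109 named genes, set differences moved by more than the spread between arrays in 30 with normexp, 20 in either GFP group alone, 6 with the mean of a gene's probes and 1 with quantile normalization. No named gene whose sets did not overlap changed sign under an alternative. Dim probes near background are the least certain.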
